A study of Danio rerio with 6 samples.

Results

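Genes for the receptors of 4 neurotransmitters (GABA, glycine, glutamate and acetylcholine) were followed in whole zebrafish at 96 h post fertilization (hpf), in pools exposed to PCB-11 and in vehicle pools. They were chosen by name: every gene symbol that begins with gabr, glra, gria, grik or chrn, with glrb followed by a or b, or with grin or grm followed by a digit. The rule found 48 of the 14791 genes in the count tables. They comprised 8 GABA-A subunit genes, 7 glycine receptor genes, 19 glutamate receptor genes and 14 nicotinic acetylcholine receptor genes. The glutamate genes were 8 AMPA, 1 kainate, 3 NMDA and 7 metabotropic receptor genes. Of the nicotinic genes, 6 encode subunits of the muscle receptor and 8 encode subunits known from neurons and sensory cells.

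The 2 groups were 3 pools of strain AB animals kept from 24 to 96 hpf in 4500 µg/L of PCB-11 (3,3'-dichlorobiphenyl) with DMSO, and 3 pools of the same strain kept in DMSO alone. DMSO made up 0.05% v/v in both groups, and the egg shell had been taken off by hand at 24 hpf in both. Each pool combined the RNA of many whole animals, so brain, retina, spinal cord and muscle were measured together, and fewer cells of a type and less RNA per cell cannot be told apart. Separate clutches are not named for the pools; the p-values therefore reflect pool-to-pool spread alone, which may be technical.

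GABA-A and glycine receptors are chloride channels built from several subunits, and in mature neurons they inhibit. Nicotinic receptors belong to the same protein family but pass cations; at the neuromuscular junction they start muscle contraction. AMPA, kainate and NMDA receptors are cation channels of a separate family and carry most fast excitation in the brain, while metabotropic glutamate receptors act through G proteins. Zebrafish keep duplicates of many of these genes, written with a final a or b.

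Reads counted in genes numbered 15705712 to 20479751 in PCB-11 pools and 17811432 to 19681843 in DMSO pools. The receptor genes held 0.146% to 0.250% of them in PCB-11 pools and 0.160% to 0.173% in DMSO pools. The exact 95% binomial interval of that share ran from 0.247% to 0.252% in PCB-11 replicate 2, the highest pool, and from 0.144% to 0.148% in PCB-11 replicate 3, the lowest. Such intervals cover counting error only. Levels below are CPM, that is counts scaled to a common library size after TMM adjustment. They are not divided by transcript length, so they compare pools for 1 gene and not genes with one another. Of the 48 genes, 46 passed edgeR's expression filter and were tested among 12960 genes, and 29 of these had at least 100 counts in every pool.

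None of the 46 tested receptor genes differed between PCB-11 and DMSO at an adjusted p under 0.05 in edgeR's quasi-likelihood test, and the smallest adjusted p was 0.366, for chrna5. Over all genes tested, 6 passed (0.0463%). At an unadjusted p under 0.05 there were 2 receptor genes (4.35%), both higher in PCB-11, where 11.8% of all genes lay under it and 5.80% were also higher. DESeq2 called 0 receptor genes, against 0.899% of all genes. It had 3 at an unadjusted p under 0.05, 2 higher and 1 lower (10.4% of all genes in either direction). The limma-voom test called 0 genes of any kind. It had 2 receptor genes at an unadjusted p under 0.05, 1 higher and 1 lower (11.9% of all genes in either direction). The groups did not overlap in 2 of the 46 (glra4a and chrna5, both higher), against 19.4% of all genes; in 10.0% of all genes the PCB-11 pools were the higher ones. The receptor shares at an unadjusted p under 0.05 and without overlap lay below those of all genes. Each of them rested on 2 or 3 receptor genes or fewer. The 0 adjusted calls cannot be told apart from the small shares of all genes called. The 95% interval of the log2 fold change held 0 for 44 of the 46, and over all of them the bounds ran from -1.27 to 1.11.

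The receptor genes varied more among the PCB-11 pools than among the DMSO pools. The SD of log2 CPM was larger in PCB-11 than in DMSO for 45 of the 46 (97.8%), with a median of 0.35 in PCB-11 and 0.12 in DMSO. Over all genes, 73.7% had the larger SD in PCB-11, with medians of 0.19 in PCB-11 and 0.11 in DMSO. The marker lists described below showed it as well. It held for 21 of 21 tested neuron markers, with medians of 0.33 in PCB-11 and 0.077 in DMSO. It also held for 31 of 31 skeletal muscle markers, with medians of 0.44 in PCB-11 and 0.076 in DMSO. In 33 of the 46 genes PCB-11 replicate 2 was the highest and replicate 3 the lowest of the 3 PCB-11 pools, an order that 24.4% of all genes showed. In 23 of the 46, replicate 2 lay above and replicate 3 below all 3 DMSO pools (9.54% of all genes). The 4 tested muscle nicotinic genes had the opposite order of PCB-11 pools, and in 3 of them replicate 3 lay above and replicate 2 below all DMSO pools (10.8% of all genes).

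**Figure D1:**
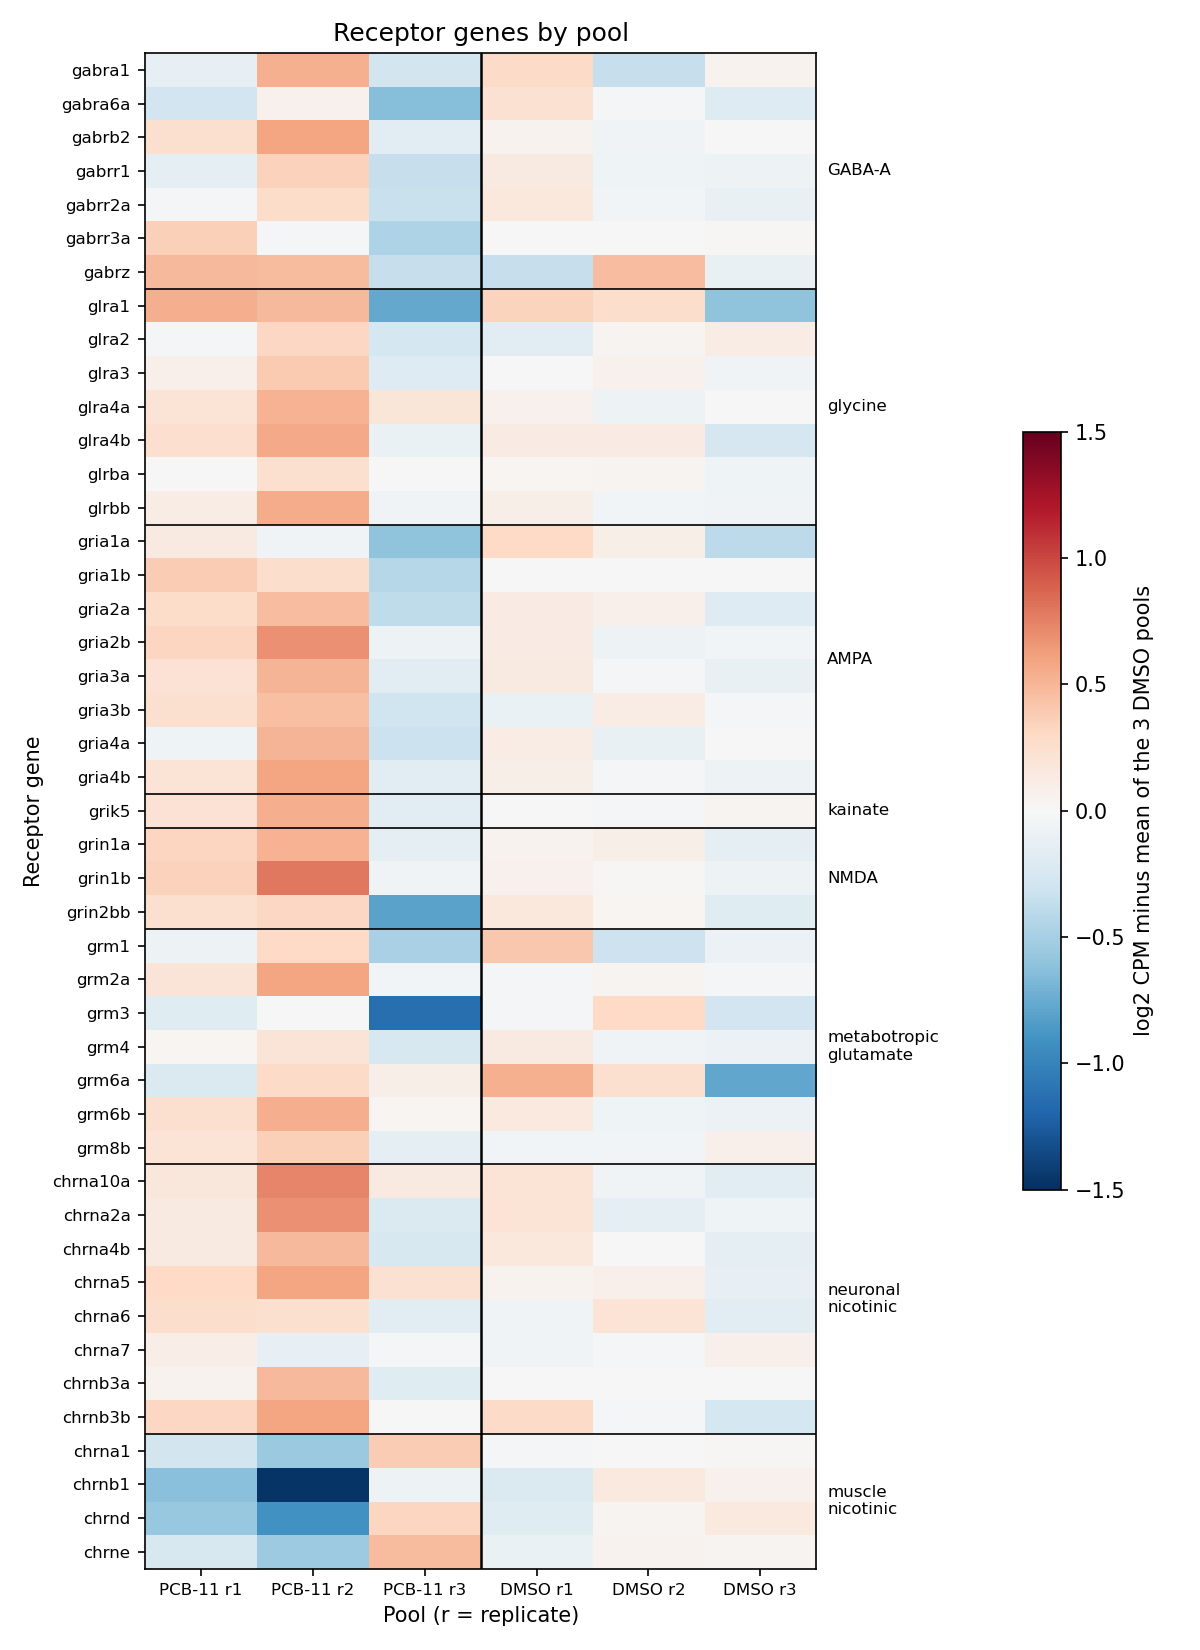
Log2 CPM of 45 of the 46 tested receptor genes (rows, grouped by subfamily) in each pool (columns), minus the gene's mean over the 3 DMSO pools; red is higher and blue lower. PCB-11 replicate 2 was the highest of the 6 pools in 30 of the 46 genes (30.9% of all genes), PCB-11 replicate 3 was the lowest in 29 (20.8%), and the 4 muscle nicotinic genes at the bottom were lowest in PCB-11 replicate 2.

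General neuron genes had the same order of PCB-11 pools. Of 30 listed neuron markers (synaptic vesicle, cytoskeletal and RNA-binding proteins such as snap25a, syt1a and elavl4), 22 matched the tables, 21 were tested and 17 of these had that order. Their summed level was 4693, 5934 and 3898 CPM in PCB-11 replicates 1, 2 and 3, against 4420, 4317 and 4113 CPM in DMSO replicates 1, 2 and 3. The sum of the 42 receptor genes outside muscle was 1831, 2328 and 1406 CPM in those PCB-11 pools and 1632, 1560 and 1460 CPM in the DMSO pools. In both sets PCB-11 replicate 2 was the highest of the 6 pools and PCB-11 replicate 3 the lowest. Of the neuron markers, 15 of 21 had a log2 fold change above 0, with a median of 0.18 (10 of 21 and -0.0020 without PCB-11 replicate 2), and 0 passed the adjusted threshold, with 1 under an unadjusted p of 0.05 in edgeR. Among the receptor genes 31 of 46 (67.4%) lay above 0, with a median of 0.13, and among all genes 50.2%, with a median of 0.0015. Without PCB-11 replicate 2, 25 of the 46 receptor genes lay above 0, with a median of 0.016, and without PCB-11 replicate 3 it was 38 of the 46, with a median of 0.28. Without DMSO replicate 3 the median was 0.08. The part of the neuron share in the receptor values was not tested.

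**Figure D2:**
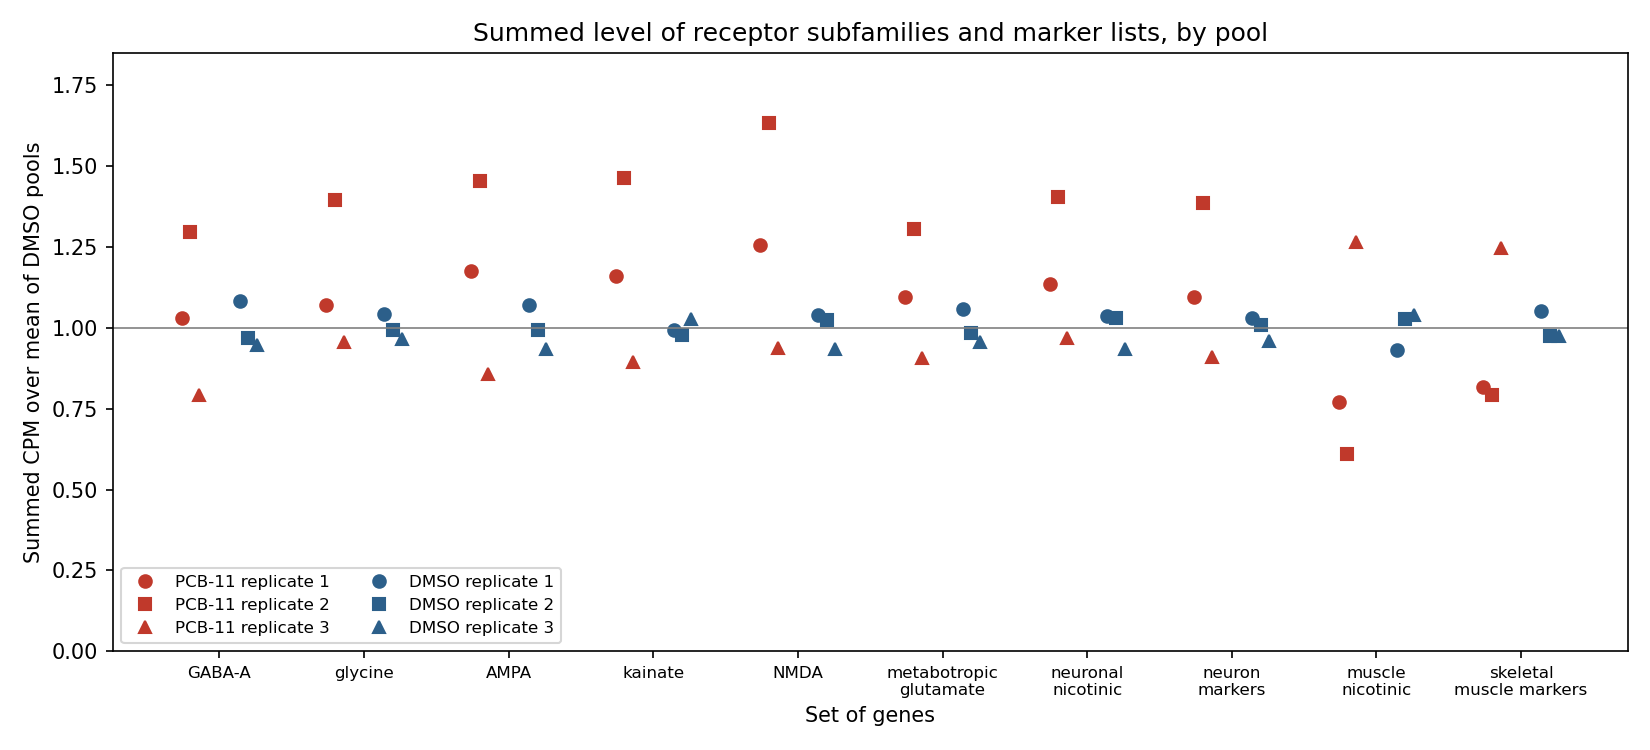
Summed CPM of each receptor subfamily and of 2 marker lists in each pool, divided by the mean of the 3 DMSO pools (red, PCB-11; blue, DMSO; symbols mark the replicates). The neuronal subfamilies ran from 0.792 in PCB-11 replicate 3 (GABA-A) to 1.63 in PCB-11 replicate 2 (NMDA), with the neuron markers at 0.910 to 1.39 in the PCB-11 pools, while muscle nicotinic genes lay at 0.608 in PCB-11 replicate 2 and 1.27 in PCB-11 replicate 3.

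Among the GABA-A genes, the beta subunit gene gabrb2 had 63.1, 80.7 and 47.5 CPM in PCB-11 replicates 1, 2 and 3, against 55.4, 51.5 and 53.9 CPM in the DMSO replicates. The DMSO pools lay inside the range of the PCB-11 pools. Its log2 fold change was 0.25 ± 0.17 (SE; 95% interval -0.13 to 0.63; adjusted p = 0.550 in edgeR). The alpha subunit gene gabra6a, whose mammalian counterpart is known from cerebellar granule cells, had 24.7, 31.6 and 19.3 CPM in PCB-11, against 35.5, 29.6 and 26.3 CPM in DMSO. Here 2 of the 3 PCB-11 pools lay below all DMSO pools. Its log2 fold change was -0.28 ± 0.18 (95% interval -0.68 to 0.13; adjusted p = 0.544 in edgeR).

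Of the other GABA-A genes, gabrz had the highest log2 fold change, at 0.21 ± 0.30. The rho subunit genes, known for slow inhibition in retinal bipolar cells, lay near 0 on the log2 scale. Of these, gabrr1 averaged 18.0 ± 4.54 CPM in PCB-11 and 18.2 ± 1.57 CPM in DMSO (SD, n = 3 each), and gabrr2a averaged 18.4 ± 3.90 CPM in PCB-11 and 18.6 ± 1.80 CPM in DMSO. Their 95% intervals, -0.41 to 0.37 for gabrr1 and -0.37 to 0.35 for gabrr2a on the log2 scale, still allow changes of either sign. In all, 3 of 8 GABA-A genes lay above 0 (5 of 8 with library size alone as the scaling), and their median log2 fold change was -0.0072. Photoreceptor markers, from the same retina, lay below 0 in 12 of 18 cases and summed to 10264, 14194 and 9536 CPM in PCB-11, against 13975, 11654 and 10797 CPM in DMSO, and their part in the retinal receptor values was not tested.

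All 7 glycine receptor genes had a log2 fold change above 0 under each of the 4 scalings over all genes, but 3 of 7 did when the neuron markers set the scale. The alpha subunit gene glra4a had 10.5, 13.1 and 10.4 CPM in PCB-11, against 9.51, 8.65 and 9.17 CPM in DMSO. Its PCB-11 pools all lay above its DMSO pools. The log2 fold change was 0.31 ± 0.14 (95% interval 0.0022 to 0.62; unadjusted p = 0.0487, adjusted p = 0.419 in edgeR). The unadjusted p was 0.0731 in DESeq2, 0.0559 in limma-voom, 0.0696 with library size alone and 0.0503 with no filter, and 0.152 in edgeR without PCB-11 replicate 2. Leaving out a single DMSO pool gave 0.0746 to 0.142, whereas omitting PCB-11 replicate 1 gave 0.0469 and omitting PCB-11 replicate 3 gave 0.0307. Its duplicate glra4b had 4.39, 5.47 and 3.42 CPM in PCB-11, against 4.01, 4.01 and 3.06 CPM in DMSO, and these groups overlapped.

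The beta subunit ties glycine receptors to the scaffold protein gephyrin. Its gene glrbb, mutated in the zebrafish motor mutant bandoneon, had 106.3, 144.4 and 94.7 CPM in PCB-11, against 105.0, 95.5 and 95.0 CPM in DMSO. PCB-11 replicates 1 and 2 lay above and replicate 3 just below all DMSO pools, and the log2 fold change was 0.23 ± 0.15 (adjusted p = 0.550 in edgeR). The duplicate glrba had the narrowest error of all tested receptor genes, with 0.08 ± 0.11. The gene glra1 rested on 11 to 31 counts per pool and its 95% interval ran from -0.81 to 1.11. The median of the 7 was 0.15, and 0.0037 without PCB-11 replicate 2, where 4 of 7 lay above 0.

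NMDA receptors need the GluN1 subunit, encoded in zebrafish by grin1a and grin1b. The 3 NMDA genes had a median log2 fold change of 0.26, or 0.10 without PCB-11 replicate 2. The gene grin1b had 582.9, 799.3 and 444.4 CPM in PCB-11, against 480.6, 465.3 and 436.6 CPM in DMSO. PCB-11 replicates 1 and 2 lay above all DMSO pools and replicate 3 among them. The log2 fold change of 0.40 ± 0.19 was the highest of the 46 (95% interval -0.03 to 0.84; adjusted p = 0.444 in edgeR). Its duplicate grin1a had 268.3, 309.4 and 194.5 CPM in PCB-11, against 222.8, 227.8 and 195.8 CPM in DMSO (0.26 ± 0.16, adjusted p = 0.539 in edgeR). For grin2bb, which encodes a glutamate-binding GluN2B subunit, the levels were 11.9, 12.5 and 5.74 CPM in PCB-11, against 11.2, 10.3 and 8.87 CPM in DMSO. PCB-11 replicate 3 was the lowest pool there, and the log2 fold change was -0.02 ± 0.26.

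AMPA receptor genes lay above 0 in 7 of 8 cases (3 of 8 on the neuron marker scale), and their median was 0.16 (0.01 without PCB-11 replicate 2). The gene gria2b encodes a GluA2 subunit, which in mammals keeps calcium out of the channel. It had 107.2, 137.6 and 81.1 CPM in PCB-11, against 92.6, 81.1 and 82.9 CPM in DMSO (0.34 ± 0.17, adjusted p = 0.457 in edgeR). The gene gria4b had 63.8, 83.8 and 49.5 CPM in PCB-11, against 59.1, 55.0 and 52.7 CPM in DMSO (0.24 ± 0.17, adjusted p = 0.571 in edgeR). In both genes PCB-11 replicates 1 and 2 lay above all DMSO pools, with PCB-11 replicate 3 near or below the lowest of them. Below 0 was gria1a, at 4.91, 4.30 and 2.90 CPM in PCB-11, against 5.50, 4.74 and 3.36 CPM in DMSO (-0.17 ± 0.25). The other 5 AMPA genes ran from 0.08 (gria4a) to 0.21 (gria3a). The kainate receptor gene grik5, whose mammalian counterpart is a high-affinity subunit, had 17.9, 22.6 and 13.8 CPM in PCB-11, against 15.4, 15.1 and 15.9 CPM in DMSO (0.23 ± 0.17, adjusted p = 0.591 in edgeR).

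**Figure D3:**
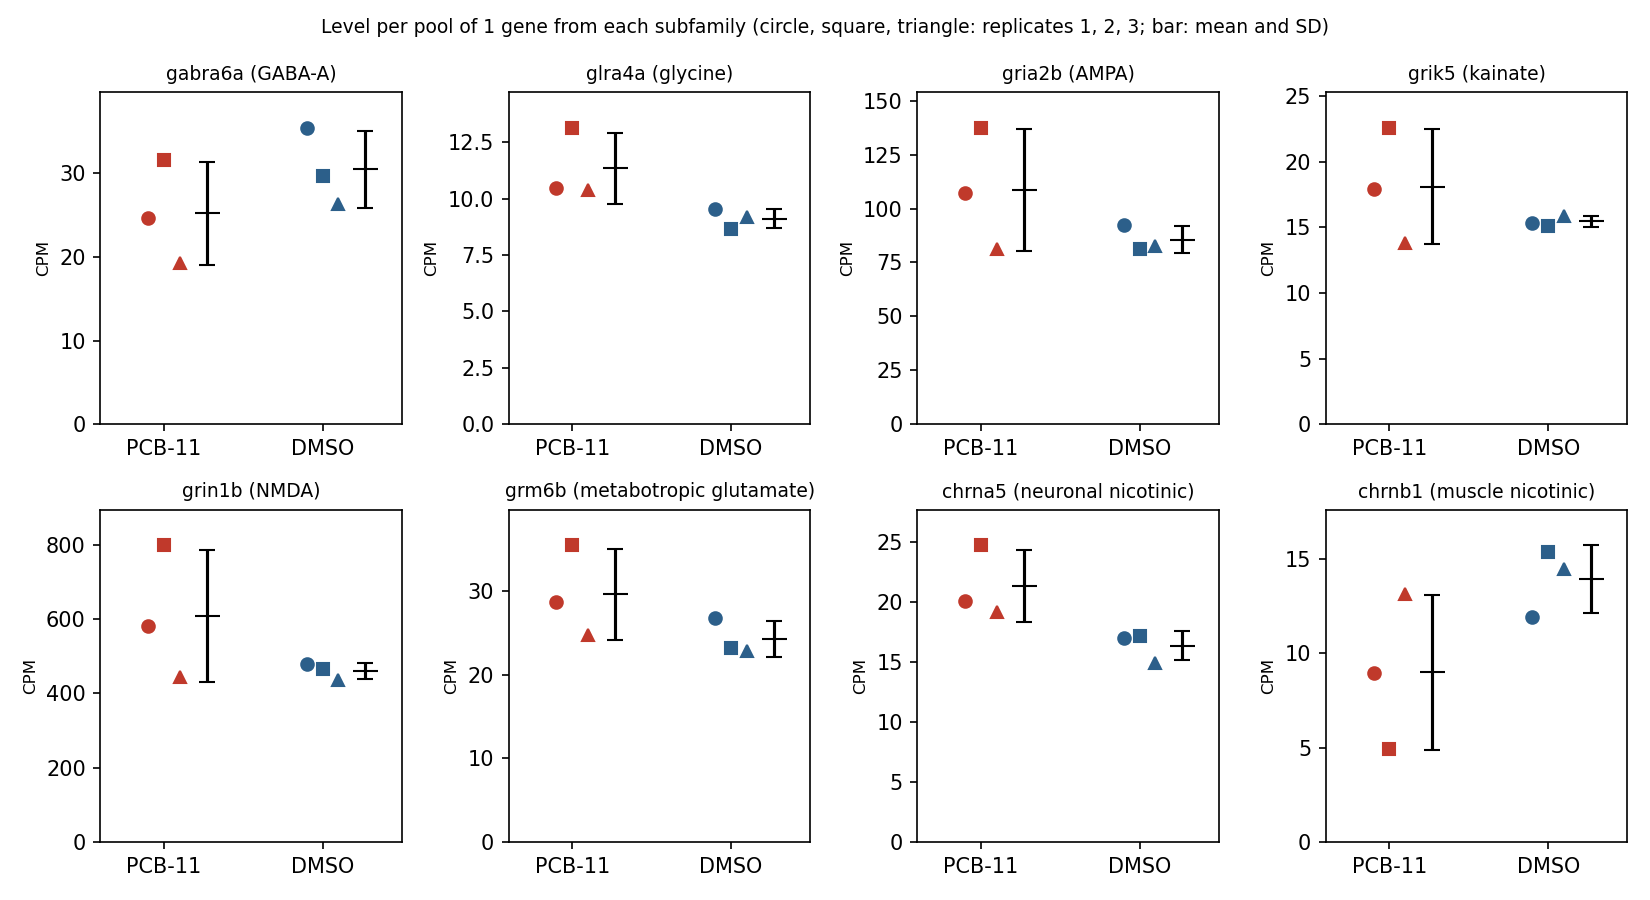
CPM in each pool for the gene with the smallest p in each of the 8 subfamilies; bars are the mean and SD over 3 pools. In glra4a and chrna5 all PCB-11 pools lay above the DMSO pools, and in the other 6 genes the groups overlapped.

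Metabotropic glutamate receptor genes had a median of 0.0013, with 4 of 7 above 0 (3 of 7 under upper-quartile scaling). Single omissions moved that median between -0.10 (3 of 7 above 0, without PCB-11 replicate 2) and 0.15 (6 of 7, without DMSO replicate 1); it was 0.10 without PCB-11 replicate 1, 0.11 without PCB-11 replicate 3, 0.06 without DMSO replicate 2 and -0.04 without DMSO replicate 3. The gene grm6b, related to the receptor with which ON bipolar cells of the retina sense photoreceptor glutamate, had 28.7, 35.4 and 24.7 CPM in PCB-11, against 26.8, 23.2 and 22.8 CPM in DMSO (0.29 ± 0.14, adjusted p = 0.456 in edgeR). The gene grm2a, of the group that dampens transmitter release, had 25.2, 33.2 and 21.3 CPM in PCB-11, against 21.7, 22.6 and 21.5 CPM in DMSO (0.27 ± 0.15, adjusted p = 0.497 in edgeR). In both, PCB-11 replicate 3 lay within or just below the DMSO pools. The gene grm4 had 40.5, 45.6 and 33.7 CPM in PCB-11, against 43.8, 38.4 and 37.4 CPM in DMSO, and averaged 39.9 CPM in each group. The lowest value in the group was that of grm3, at -0.40 ± 0.31, with 24 to 69 counts per pool.

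Neuronal nicotinic genes lay above 0 in 7 of 8 cases (4 of 8 on the neuron marker scale), with a median of 0.20 (0.05 without PCB-11 replicate 2). The gene chrna5 encodes an accessory subunit that joins other neuronal subunits. It had 20.1, 24.7 and 19.1 CPM in PCB-11, against 17.0, 17.1 and 14.9 CPM in DMSO, and the groups did not overlap. The log2 fold change was 0.38 ± 0.13 (95% interval 0.09 to 0.67; unadjusted p = 0.0161, adjusted p = 0.366 in edgeR), the smallest p of the 46. For chrna5 the unadjusted p was 0.0164 in DESeq2 and 0.0181 in limma-voom. Its log2 fold change was 0.26 to 0.45 over single omissions and 0.22 with neuron markers as the total. Without DMSO replicate 3, and on the neuron marker scale, 0 of 8 neuronal nicotinic genes had an unadjusted p under 0.05 in edgeR (7.59% and 4.49% of all genes). The gene chrna10a, whose mammalian counterpart serves hair cells of the ear, had 4.70, 7.00 and 4.58 CPM in PCB-11, against 4.81, 4.01 and 3.72 CPM in DMSO (0.37 ± 0.21, adjusted p = 0.498 in edgeR). Here DMSO replicate 1 lay above 2 of the PCB-11 pools. The gene chrnb3a had 22.8, 30.7 and 19.4 CPM in PCB-11, against 21.9, 22.0 and 21.9 CPM in DMSO (0.14 ± 0.16), so its DMSO pools were nearly equal and its PCB-11 pools spread around them. The calcium-permeable receptor gene chrna7 averaged 2.00 ± 0.163 CPM in PCB-11 and 2.02 ± 0.103 CPM in DMSO.

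Muscle nicotinic genes lay on the other side, with all 4 tested members below 0 and a median of -0.19 on the log2 scale. This median was 0.01 without PCB-11 replicate 2, and with the skeletal muscle markers as the scaling total 1 of the 4 lay above 0. The gene chrnb1, for the beta subunit, had 8.93, 4.91 and 13.1 CPM in PCB-11, against 11.9, 15.4 and 14.5 CPM in DMSO (-0.62 ± 0.29; 95% interval -1.27 to 0.02; adjusted p = 0.429 in edgeR). For chrnb1 the unadjusted p was 0.0570 in edgeR, 0.0310 in DESeq2 and 0.0341 in limma-voom. Its log2 fold change ran from -0.99 without PCB-11 replicate 3 to -0.34 without PCB-11 replicate 2. The gene chrnd, for the delta subunit, had 23.9, 18.9 and 44.5 CPM in PCB-11, against 31.2, 36.4 and 39.2 CPM in DMSO (-0.29 ± 0.27, adjusted p = 0.663 in edgeR). The PCB-11 pools of chrnd surrounded its DMSO pools on both sides.

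The acetylcholine-binding alpha subunit gene chrna1 showed the same spread, with 47.4, 38.9 and 74.5 CPM in PCB-11, against 56.2, 57.6 and 57.9 CPM in DMSO (-0.09 ± 0.20). The gene chrne encodes the epsilon subunit, which in mammals belongs to the mature junction, and had 23.1, 18.8 and 38.0 CPM in PCB-11, against 25.6, 28.4 and 28.2 CPM in DMSO (-0.04 ± 0.22). Skeletal muscle markers lay below 0 in 22 of 31 cases, with a median of -0.16, and summed to 67281, 65063 and 102460 CPM in PCB-11, against 86348, 80150 and 80077 CPM in DMSO, so PCB-11 replicate 3 was the highest pool there as well. Their median was -0.06 without PCB-11 replicate 1, -0.06 without PCB-11 replicate 2 and -0.49 without PCB-11 replicate 3, where all 31 lay below 0. The part of the muscle share in these values was not tested. The remaining muscle genes were not tested for lack of counts: chrnb1l had 3 to 9 counts per pool, and chrng, for the gamma subunit of the immature mammalian receptor, had 0 in all 6, which allows up to 3 counts or 0.153 to 0.184 CPM. Such a 0 may also be a gene the counting failed to reach: 596 genes had it in every pool, among them gap43, a growth cone gene on the neuron list.

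**Figure D4:**
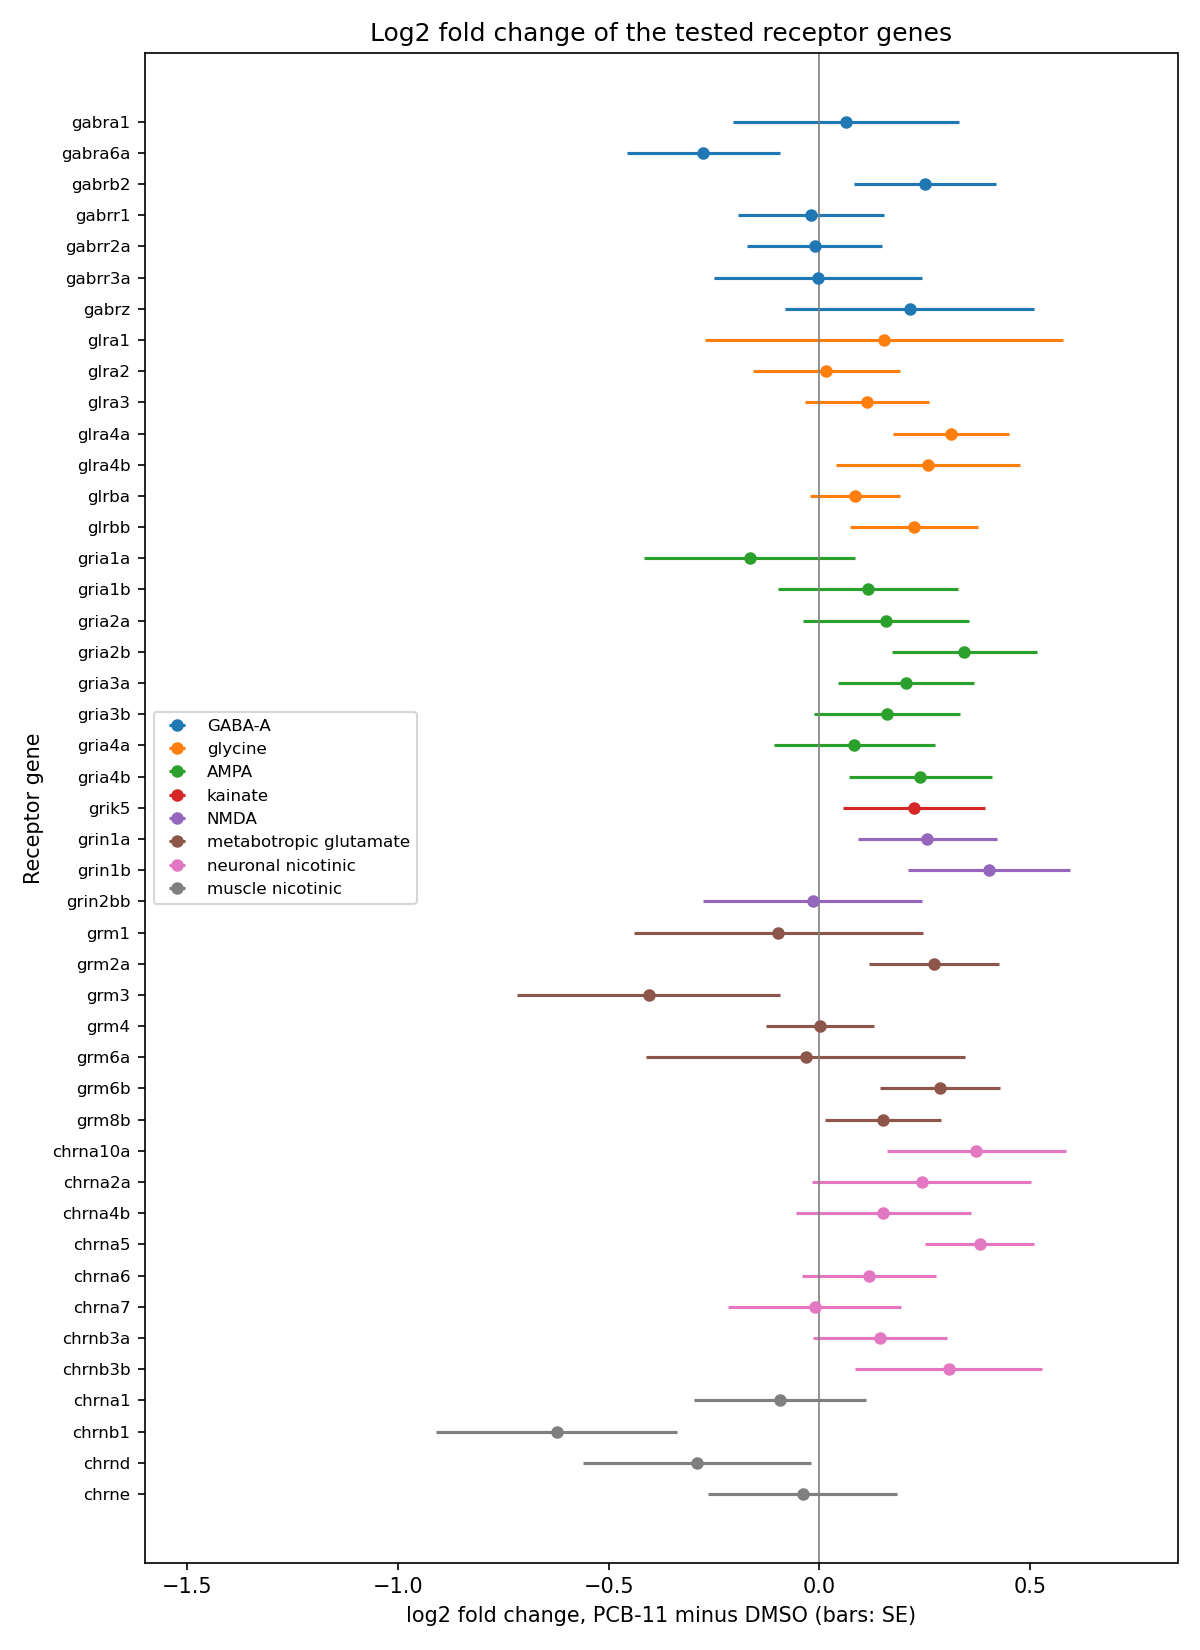
Log2 fold change (PCB-11 minus DMSO) of 45 of the 46 tested receptor genes, with bars of 1 SE, coloured by subfamily. Values ran from -0.62 (chrnb1) to 0.40 (grin1b), and none passed the adjusted threshold.

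The families were set side by side by their medians, with no test between them. Glutamate receptor genes had a median log2 fold change of 0.16 (14 of 19 above 0), glycine 0.15 (7 of 7), nicotinic 0.13 (7 of 12) and GABA-A -0.0072 (3 of 8). Without PCB-11 replicate 2 these medians were 0.03, 0.0037, 0.05 and -0.09. Without PCB-11 replicate 3 they were 0.35, 0.35, 0.27 and 0.16. With neuron markers as the scaling total they were -0.024, -0.031, -0.039 and -0.17, where the median of all genes was -0.13. The nicotinic median mixes neuronal genes (median 0.20, 7 of 8 above 0) with muscle genes (median -0.19, 0 of 4 above 0).

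Leaving out PCB-11 replicate 3 moved the calls more than any other single omission. Then 19 of the 46 receptor genes (41.3%) had an unadjusted p under 0.05 in edgeR, 15 higher (11.3% of all genes) and 4 lower (11.6%), against 22.8% of all genes in either direction. The 4 lower genes were the 4 muscle nicotinic genes. Of these chrnd was called, at -0.73 and an adjusted p of 0.0423 in edgeR, where 1.41% of all genes were called. The higher genes included 5 of 8 AMPA, 2 of 3 NMDA, 2 of 7 glycine and 1 of 8 GABA-A genes. With the same omission, 14 of 21 neuron markers (66.7%) had an unadjusted p under 0.05 in edgeR, all higher. So did 22 of 31 skeletal muscle markers (71.0%), all lower. Both shares were above the 41.3% of the receptor genes.

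Each subfamily's sum was also divided by the neuron marker sum of the same pool, and the log2 ratios are given minus the mean of the DMSO pools. For NMDA genes the ratios were 0.20, 0.24 and 0.05 in PCB-11, against 0.01, 0.02 and -0.04 in DMSO, without overlap. Most of the NMDA sum was grin1b, with a mean of 608.9 of 876.3 CPM in PCB-11 and 460.8 of 686.4 CPM in DMSO, while grin2bb had a log2 fold change below the neuron marker median. For GABA-A genes the ratios were -0.09, -0.09 and -0.20 in PCB-11, against 0.07, -0.05 and -0.02 in DMSO, on the other side and without overlap. The gene gabra6a had the lowest log2 fold change of the 8. It made up a mean of 25.2 of 137.6 CPM in PCB-11 and 30.5 of 132.4 CPM in DMSO. In contrast, gabrb2 lay at 0.25, above the neuron marker median of 0.18. The NMDA sum was not taken without grin1b, nor the GABA-A sum without gabra6a. Neither separation can therefore be ascribed to its subfamily as a whole. Single genes without overlap made up 19.4% of all genes on the CPM scale, which is not the scale of these ratios. No such share was computed for ratios of sums, and no test was made of these sums. The other 5 neuronal subfamilies overlapped, with ratios from -0.09 to 0.10 in PCB-11 pools. Muscle nicotinic genes over skeletal muscle markers gave -0.09, -0.38 and 0.02 in PCB-11, against -0.17, 0.08 and 0.10 in DMSO.

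**Figure D5:**
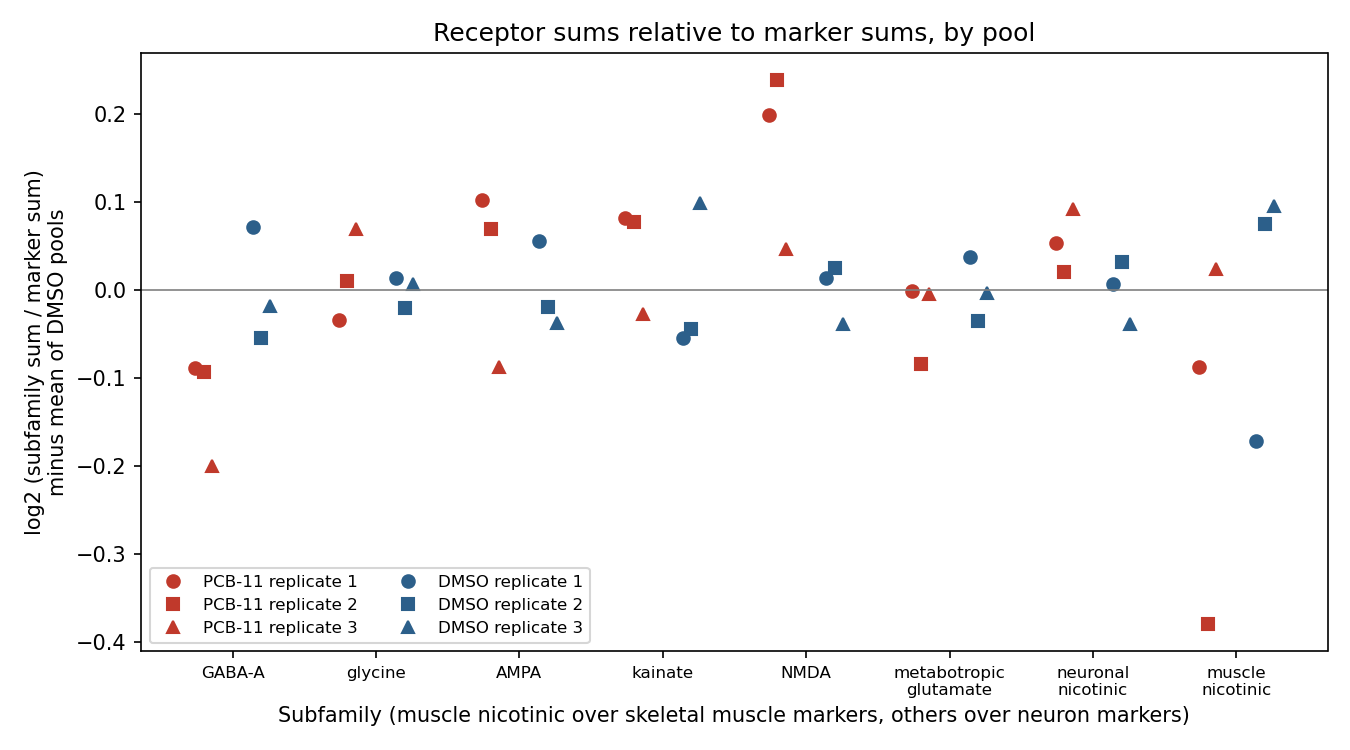
Log2 ratio of each subfamily's summed CPM to the marker sum of the same pool, minus the mean of the DMSO pools (neuron markers, or skeletal muscle markers for muscle nicotinic genes). The summed NMDA genes lay at 0.05 to 0.24 and the summed GABA-A genes at -0.20 to -0.09 in the PCB-11 pools, each apart from its DMSO pools. No sum was taken with a gene left out, so neither separation can be ascribed to its subfamily as a whole.

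With the neuron marker sum as the scaling total in edgeR, the median of all genes shifted to -0.13 and 0 receptor genes were called. Of the 46, gabra6a had an unadjusted p under 0.05, with a log2 fold change of -0.45 (unadjusted p = 0.0187, adjusted p = 0.898 in edgeR; 4.49% of all genes were under it). On that scale grin1b had 0.21 (adjusted p = 0.899 in edgeR), and 17 of the 46 lay above 0, among them 2 of 3 NMDA, 3 of 7 glycine and 2 of 8 GABA-A genes.

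Ratios between duplicates compare 2 genes within a pool, so a factor common to both cancels. Of the 9 a/b pairs with both genes tested, none separated the groups. Their mean log2 ratio differed between PCB-11 and DMSO by -0.24 (gria1a/gria1b) to 0.06 (glra4a/glra4b). In grin1a/grin1b the ratio was -1.12, -1.37 and -1.19 in PCB-11, against -1.11, -1.03 and -1.16 in DMSO. In gria2a/gria2b it was -0.14, -0.31 and -0.40 in PCB-11, against -0.08, 0.05 and -0.25 in DMSO. The smallest p over the 9 pairs was 0.2 (exact permutation test, two-sided; 0.6 after Benjamini-Hochberg adjustment), where 3 pools against 3 allow 0.1 at best. Reads that such duplicates share may have been split between them or left out, since the sources used here do not say how they were counted.

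The muscle subunits were compared with chrna1 in the same way, a choice made after their values were seen. For chrnb1 the log2 ratio to chrna1 was -2.39, -2.96 and -2.50 in PCB-11, against -2.23, -1.90 and -1.99 in DMSO. All PCB-11 pools lay below the DMSO pools, by -0.58 on average (p = 0.1 in a two-sided exact permutation test, the least that 3 against 3 allow; 0.3 adjusted over 3 ratios). For chrnd and chrne the groups overlapped, with differences of -0.23 and 0.04.

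Genes that make, move or anchor these transmitters and receptors were followed in 4 lists, and edgeR called 0 of their 70 tested members at an adjusted p under 0.05. At an unadjusted p under 0.05 there were 1 of 18 in the GABA list, 2 of 8 in the glycine list, 6 of 35 in the glutamate list and 1 of 9 in the acetylcholine list, against 11.8% of all genes. In the GABA list 12 of 18 lay above 0 (median 0.09; 8 of 18 and -0.02 without PCB-11 replicate 2). The GABA-synthesizing enzyme gene gad1b had 417.8, 536.2 and 356.8 CPM in PCB-11, against 372.4, 352.8 and 341.4 CPM in DMSO (0.30 ± 0.15, adjusted p = 0.461 in edgeR). For gabarapa, a trafficking protein gene, the PCB-11 pools at 101.4, 117.2 and 108.5 CPM lay above the DMSO pools at 90.5, 94.7 and 92.5 CPM (0.24 ± 0.09, adjusted p = 0.401 in edgeR). Groups without overlap occurred in 19.4% of all genes. With library size alone, 0 of the 18 GABA list genes had an unadjusted p under 0.05 in edgeR (9.76% of all genes). The count was also 0 without PCB-11 replicate 2 (9.09%) and without any single DMSO pool (5.59% to 8.05%).

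In the glycine list all 8 genes lay below 0 (median -0.19), and 2 of 8 lay above 0 with skeletal muscle markers as the scaling total. Without PCB-11 replicate 2 the median was -0.06 with 1 of 8 above 0, and without DMSO replicate 1 it was -0.12 with 1 of 8 above 0. The 2 smallest p were those of general one-carbon enzymes, amt (-0.29 ± 0.10) and shmt2 (-0.40 ± 0.16), with adjusted p of 0.373 and 0.409 in edgeR. The neuronal glycine transporter gene slc6a5, chosen after its values were seen, had 8.47, 5.59 and 3.74 CPM in PCB-11, against 8.37, 8.65 and 5.86 CPM in DMSO (-0.36 ± 0.28).

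In the glutamate list 19 of 35 lay above 0 (median 0.05; 14 of 35 and -0.04 without PCB-11 replicate 2), and 3 higher and 3 lower genes were under an unadjusted p of 0.05. The glutaminase gene gls2b had 7.08, 6.20 and 8.85 CPM in PCB-11, against 11.4, 13.2 and 17.3 CPM in DMSO (-0.92 ± 0.19, adjusted p = 0.222 in edgeR). Glutamine synthetase, which glia use to clear glutamate, is encoded by glulb and glula, which also stand on the glia list. The gene glulb had 503.4, 501.4 and 565.5 CPM in PCB-11, against 401.4, 432.4 and 437.5 CPM in DMSO (0.30 ± 0.11, adjusted p = 0.379 in edgeR). The gene glula, chosen after its values were seen, had 585.7, 752.1 and 652.4 CPM in PCB-11, against 529.5, 534.3 and 526.4 CPM in DMSO (0.32 ± 0.12, adjusted p = 0.391 in edgeR). All 3 genes separated the groups, as 19.4% of all genes did, and PCB-11 replicate 2 was the highest pool for glula but not for glulb. Glia and myelin markers, with glula and glulb among them, lay above 0 in 11 of 16 cases. They summed to 3609, 4147 and 3625 CPM in PCB-11, against 3323, 3365 and 3195 CPM in DMSO. These sums contain the values of glula and glulb themselves, so they are no separate measure of glia. The part of the glia share in these values was not tested.

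In the acetylcholine list 3 of 9 lay above 0 (median -0.05; 5 of 9 and 0.0063 without PCB-11 replicate 2). Acetylcholinesterase, which ends transmission at the muscle junction, had 147.0, 121.3 and 122.7 CPM of ache in PCB-11, against 150.8, 165.3 and 152.7 CPM in DMSO (-0.26 ± 0.11; unadjusted p = 0.0405, adjusted p = 0.411 in edgeR). Its PCB-11 pools all lay below the DMSO pools, where 19.4% of all genes had groups without overlap. With library size alone, 0 of the 9 genes had an unadjusted p under 0.05 in edgeR (9.76% of all genes). The count was also 0 when PCB-11 replicate 2, DMSO replicate 1 or DMSO replicate 2 was left out (9.09%, 8.05% and 5.59% of all genes). The transmitter-synthesizing enzyme gene chata, of motor and other cholinergic neurons, had 28.3, 31.9 and 19.3 CPM in PCB-11, against 20.5, 21.9 and 17.9 CPM in DMSO (0.40 ± 0.18, adjusted p = 0.424 in edgeR). The gene rapsn, whose product clusters the muscle receptor, was chosen after its values were seen. It had 17.5, 9.64 and 32.5 CPM in PCB-11, against 21.8, 26.2 and 25.9 CPM in DMSO, the order of pools that the muscle receptor genes had.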

How the data were processed

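Poly(A) RNA of 6 pools (3 PCB-11, 3 DMSO) was sequenced. The authors deposited raw read counts by gene symbol, in a table for each pool, and the submitters' processing notes name genome build danRer7 and Cufflinks without giving either a role. The sources used here do not give the aligner, counting program, strand setting or annotation. Reads outside genes (31.4% to 39.1%) and ambiguous reads (0.379% to 0.429%), kept in 2 rows that hold no gene, were left out. The 12960 genes that passed filterByExpr were tested for a PCB-11 effect in edgeR 4.0.16 under R 4.3.3, with a two-sided quasi-likelihood F test on group alone, TMM scaling, robust dispersion and Benjamini-Hochberg adjustment over all of them (threshold 0.05). A log2 fold change is positive where PCB-11 is higher, its SE comes from the F statistic, and log2 CPM had a prior count of 2. The test was tried on simulated counts.

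Named genes were any called member, the 2 with the smallest p and the 1 highest in CPM in each subfamily, and the 2 with the smallest p in each partner list. Other genes named were chosen after their values were seen. Of 223 list entries, 163 matched, 4 of them by a RefSeq synonym (GRCz12tu, names only). The members and lists were chosen with earlier results of these data known. Alternatives were 3 other scalings, 2 marker-based scaling totals, 2 other filters, DESeq2 1.42.0, limma-voom (limma 3.58.1), dispersion without robustness, a replicate block and each pool left out. Figures used matplotlib 3.10.9. The values of 1 tested member, counted in the totals and left out of the figures, are not reported here.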

Additional observations from a re-analysis of the deposited data

How the results depend on the processing

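No receptor gene was called by edgeR under any scaling, filter, block or dispersion alternative, nor by DESeq2 or limma-voom. Over the single-pool omissions the count was 0 to 1, the 1 being chrnd without PCB-11 replicate 3. Over all genes, calls were 112 in DESeq2, 0 in limma-voom (1540 at an unadjusted p under 0.05), and 0 to 184 with single pools left out, against 6. Deviations of same-numbered pools correlated across genes at r of 0.26, -0.15 and 0.37 for replicates 1, 2 and 3. Between pools of unlike number r ran from -0.40 to 0.23, so replicates 1 and 3 had the highest values. The sources used here do not say what the numbers mark, and they were not taken as pairs. The replicate block gave 26 calls, 0 of them receptor genes.

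The nicotinic median was -0.039 with neuron markers and 0.29 with skeletal muscle markers as the scaling total, and 0.050 to 0.27 with single pools left out, against 0.13; the cause was not tested. The medians of the other 3 families moved by less than their spread between pools. That spread was the SD of the pool medians around their group means, pooled over PCB-11 and DMSO. It was 0.13 for nicotinic, 0.24 for glutamate, 0.21 for glycine and 0.25 for GABA-A. The nicotinic median mixes neuronal and muscle genes, whose PCB-11 pools had opposite orders, so its SD understates the spread of single genes. The median SD of log2 CPM of single genes in PCB-11 was 0.35 for nicotinic, 0.38 for glutamate, 0.29 for glycine and 0.37 for GABA-A. The signs of the glutamate, glycine and GABA-A medians still turned with marker-based totals, and that of GABA-A turned in other settings too. With neuron markers as the total the glutamate median was -0.024, against 0.16, and the glycine median -0.031, against 0.15. The GABA-A median was 0.15 with skeletal muscle markers as the total, against -0.0072. It was also above 0 with library size alone (0.0055). Leaving out PCB-11 replicate 1, PCB-11 replicate 3 or DMSO replicate 1 gave 0.016, 0.16 and 0.061. Signs turned for 3 genes named by rule. The value of grm4, 0.0013, was -0.0032 under upper-quartile scaling, -0.0022 without a filter, -0.0071 in limma-voom, -0.0057 with the replicate block, -0.16 with neuron markers as the total, and -0.10 to 0.11 with single pools left out. The value of chrnb3a was -0.035 with neuron markers as the total and -0.057 to 0.28 over single omissions, and chrna1 ran from -0.40 to 0.091 over single omissions. The median SE of a receptor gene was 0.19, and 13 of the 46 had under 100 counts in every pool, which limits what difference could be seen.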
